A study of Mus musculus with 4 samples.

Results

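The genes described here are 39 smooth muscle contractile genes of the intestinal wall, chosen by name, and 36 of them had values among the 11489 genes of a table of mouse ileum RNA. Sorbs2, Ppp1r12b and Myocd had no row and were not analysed here. Ileum tissue came from wild-type C57BL/6J mice aged 8 weeks, given 3 intraperitoneal injections at 8 h intervals. To find genes controlled by the pregnane X receptor (PXR), a nuclear receptor for foreign compounds, 2 libraries from mice given 40 mg/kg of its steroid agonist pregnenolone-16α-carbonitrile (PCN) were set against 2 vehicle libraries, which the labels name DMSO. All mice were wild type and no line without PXR was part of these libraries. PCN was dissolved in a mixture of DMSO and corn oil, and the labels do not say whether the vehicle held corn oil or whether the muscle layers were trimmed. Values are FPKM (fragments per unit of transcript length and of sequencing depth) summed over the 84 transcripts of these genes, so the levels of different genes can be set side by side. FPKM is an estimate in which reads shared by similar sequences are divided between transcripts.

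Smooth muscle of the gut lies in a circular and a longitudinal layer around the mucosa, with a thin sheet beneath the mucosa and further muscle in vessel walls. It shortens when calcium switches on myosin light chain kinase, myosin pulls on actin filaments, and dense bodies and membrane plaques pass the force from cell to cell. Serum response factor with its partner myocardin drives most contractile genes through a DNA element called the CArG box.

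The FPKM of a library summed to 510900 and 481925 in the PCN libraries, and to 482986 and 550832 in the vehicle libraries, and the number of reads per library is unknown. As a check of the treatment, 2 PXR-responsive genes were read, and both were higher in PCN. The study picked B3galt5 from its own RNA sequencing of PCN-treated mice, which may include these libraries. Its rise here is then no separate check. B3galt5, a galactosyltransferase gene, had 34.7 and 34.8 FPKM in the PCN libraries, against 3.15 and 3.09 FPKM in the vehicle libraries. Its log2 fold change was 3.12 ± 0.11 (SE; limma on log2(FPKM + 1), adjusted p = 0.0115). Cyp3a11, a cytochrome P450 of drug metabolism, had 163 and 214 FPKM in the PCN libraries, against 26.1 and 14.7 FPKM in the vehicle libraries (log2 fold change 3.19 ± 0.29, limma adjusted p = 0.0640). No label gives the animal behind a library, so the p-values cover the spread between these 4 samples only, and that spread may be technical.

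All 36 smooth muscle genes had a lower mean on the log2 scale in PCN than in vehicle ileum, but none passed the test, and the vehicle libraries differed widely from each other. For Kcnmb1, Cryab and Itga5 this direction was fixed by the filter on the deposited values, as given below. The FPKM of the 36 genes summed to 724 in PCN replicate 1 and 814 in PCN replicate 2, against 1011 in vehicle replicate 1 and 1735 in vehicle replicate 2. Vehicle replicate 2 thus stood apart from the other 3 libraries, and both PCN libraries lay below both vehicle libraries. In bulk tissue, fewer muscle cells and less RNA per muscle cell cannot be told apart. Vehicle replicate 2 exceeded vehicle replicate 1 in 33 of the 36 genes, where 42.4% of all 11103 tested genes did so. It was at least 1.5 times as high in 25 of them (8.19% of all tested genes) and at least 2 times as high in 16 (3.59% of all tested genes). The median ratio of vehicle replicate 2 to vehicle replicate 1 was 1.80 over the 36 genes, with a range of 0.625 to 7.50, against 0.968 over all tested genes above 0 in every library. The PCN libraries were closer to each other, with a median ratio of PCN replicate 2 to PCN replicate 1 of 1.12, and PCN replicate 2 was the higher in 25 genes (47% of all tested genes).

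**Figure D1:**
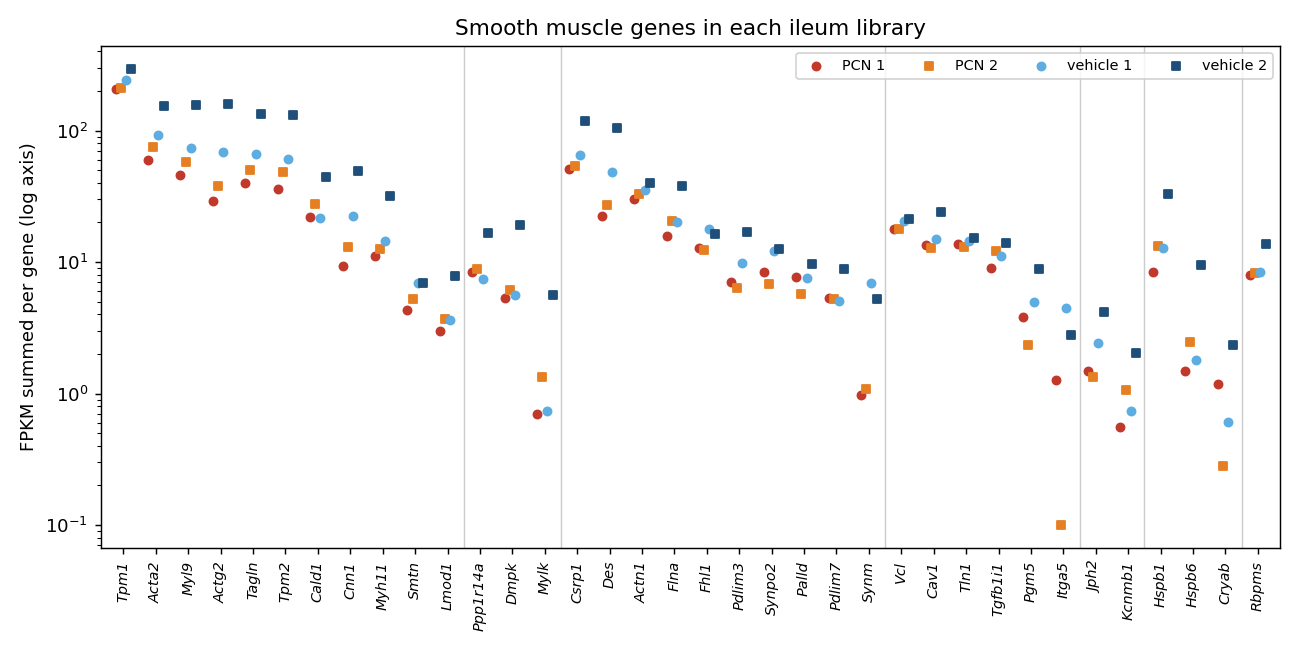
FPKM of each of the 36 smooth muscle genes on a log axis, 1 point per library (red and orange, PCN replicates 1 and 2; light and dark blue, vehicle replicates 1 and 2), with grey lines between groups of genes by role. Vehicle replicate 2 is the highest library in 33 genes, and both PCN libraries are below both vehicle libraries in 23.

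The contractile filaments were represented by 11 genes, for actins, myosin chains, tropomyosins and actin-binding regulators. Acta2 (chr19:34241090-34255590 in mm10), the smooth muscle alpha actin found in vessels as well as gut, had 59.4 and 75.1 FPKM in the PCN libraries, against 92.1 and 155 FPKM in the vehicle libraries. Actg2 (chr6:83512905-83536265), the gamma actin typical of gut muscle, had 29.3 and 37.9 FPKM in the PCN libraries, against 68.8 and 160 FPKM in the vehicle libraries. For both actins the groups did not overlap, and the gap within the vehicle group was wider than that between vehicle replicate 1 and either PCN library. Actg2 averaged 33.6 ± 6.05 FPKM in PCN ileum and 115 ± 64.8 FPKM in vehicle ileum (SD, n = 2 each), a log2 fold change of -1.63 ± 0.41 (SE) that did not pass limma's test (adjusted p = 0.304). That of Acta2 was -0.83 ± 0.27 (limma adjusted p = 0.441). The coding sequences of actin genes are much alike, so part of these reads may have been divided between them.

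The motor itself followed the same order of libraries. Myh11 (chr16:14194535-14291372), the smooth muscle myosin heavy chain, had 11.1 and 12.6 FPKM in the PCN libraries, against 14.5 and 31.9 FPKM in the vehicle libraries. Myl9 (chr2:156775420-156781658), the regulatory light chain that is phosphorylated at contraction, had 46.0 and 57.7 FPKM in the PCN libraries, against 73.4 and 156 FPKM in the vehicle libraries. In both genes vehicle replicate 1 lay nearer to the PCN libraries than to vehicle replicate 2. Their log2 fold changes were -0.81 ± 0.36 for Myh11 and -1.04 ± 0.36 for Myl9 (limma adjusted p = 0.572 and 0.482).

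Among the actin-binding genes, Cnn1 (chr9:22099216-22109630), the calponin that restrains the myosin motor, had 9.31 and 13.0 FPKM in the PCN libraries, against 22.2 and 49.5 FPKM in the vehicle libraries. Tagln (chr9:45929619-45936058), transgelin or SM22, had 39.7 and 49.9 FPKM in the PCN libraries, against 66.5 and 134 FPKM in the vehicle libraries. Tpm2, a tropomyosin that lies along the actin filament, had 35.7 and 48.3 FPKM in the PCN libraries, against 60.4 and 132 FPKM in the vehicle libraries. In these 3 genes the groups did not overlap, and vehicle replicate 2 was over 2 times vehicle replicate 1, with ratios of 2.23, 2.01 and 2.19. Their log2 fold changes were -1.51 ± 0.39 for Cnn1, -1.07 ± 0.34 for Tagln and -1.09 ± 0.39 for Tpm2 (limma adjusted p = 0.328, 0.439 and 0.489). Smtn, smoothelin, had 4.29 and 5.28 FPKM in the PCN libraries, against 6.90 and 6.92 FPKM in the vehicle libraries (log2 fold change -0.46 ± 0.16, limma adjusted p = 0.477). The even vehicle sums depended on a transcript with a value identical to one of another gene. The main transcript had 2.81 and 5.24 FPKM in the PCN libraries, against 4.31 and 5.80 FPKM in the vehicle libraries, and its groups overlapped. Lmod1, a leiomodin that nucleates actin filaments, had 3.00 and 3.69 FPKM in the PCN libraries, against 3.60 and 7.83 FPKM in the vehicle libraries, and its groups overlapped. Over the 11 filament genes the median log2 fold change was -0.83, and 8 were lower at an unadjusted limma p under 0.05, where 4.11% of all tested genes were.

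Tpm1, with 208 and 209 FPKM in the PCN libraries against 242 and 295 FPKM in the vehicle libraries, was the most abundant of the 36 genes, and its transcripts split by form. The gene, on the minus strand of chromosome 9, carries a pair of coding exons of 126 bases of which a transcript uses 1. Exon 2a is the one used in smooth muscle and exon 2b the one used in most other cells, and short forms start downstream and hold neither. Both exons are shown because the 2a transcripts differed most between libraries. Exon 2a lies at chr9:67048124-67048249 and exon 2b at chr9:67047786-67047911 (mm10, minus strand). They share 60 of 126 bases (47.6%), and capitals mark the positions at which they differ.
Tpm1 exon 2a: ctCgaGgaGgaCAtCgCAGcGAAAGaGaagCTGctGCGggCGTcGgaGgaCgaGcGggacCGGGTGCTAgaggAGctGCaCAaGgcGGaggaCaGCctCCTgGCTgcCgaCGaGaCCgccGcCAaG
Tpm1 exon 2b: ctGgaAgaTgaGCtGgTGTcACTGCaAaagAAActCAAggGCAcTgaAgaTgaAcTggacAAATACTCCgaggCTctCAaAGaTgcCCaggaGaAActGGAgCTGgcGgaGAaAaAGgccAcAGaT
Transcripts were put into forms by the nearest reference transcript given in the deposited table, so a form is an assignment and not a count of reads over these exons. The forms were picked after values had been seen and received no test. Exon 2a transcripts had 39.2 and 55.6 FPKM in the PCN libraries, against 67.2 and 146 FPKM in the vehicle libraries. Exon 2b transcripts had 5.40 and 5.37 FPKM in the PCN libraries, against 10.6 and 11.5 FPKM in the vehicle libraries. The short forms had 163 and 148 FPKM in the PCN libraries, against 164 and 138 FPKM in the vehicle libraries, so these groups overlapped. Exon 2a transcripts made up 18.9% and 26.6% of Tpm1 in the PCN libraries, against 27.8% and 49.4% in the vehicle libraries. The whole gene had a log2 fold change of -0.36 ± 0.11 (limma adjusted p = 0.406).

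Cald1, caldesmon, another inhibitor of the actin and myosin interaction, has a heavy form made in smooth muscle and a light form made in other cells. The heavy form had 8.33 and 14.6 FPKM in the PCN libraries, against 11.03 and 27.4 FPKM in the vehicle libraries. The light form had 13.9 and 13.3 FPKM in the PCN libraries, against 10.7 and 17.2 FPKM in the vehicle libraries. Only the heavy form was over 2 times as high in vehicle replicate 2 as in vehicle replicate 1, with a ratio of 2.48 against 1.62 for the light form. As a whole gene Cald1 had 22.2 and 27.8 FPKM in the PCN libraries, against 21.7 and 44.6 FPKM in the vehicle libraries, and vehicle replicate 1 was the lowest library of all.

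**Figure D2:**
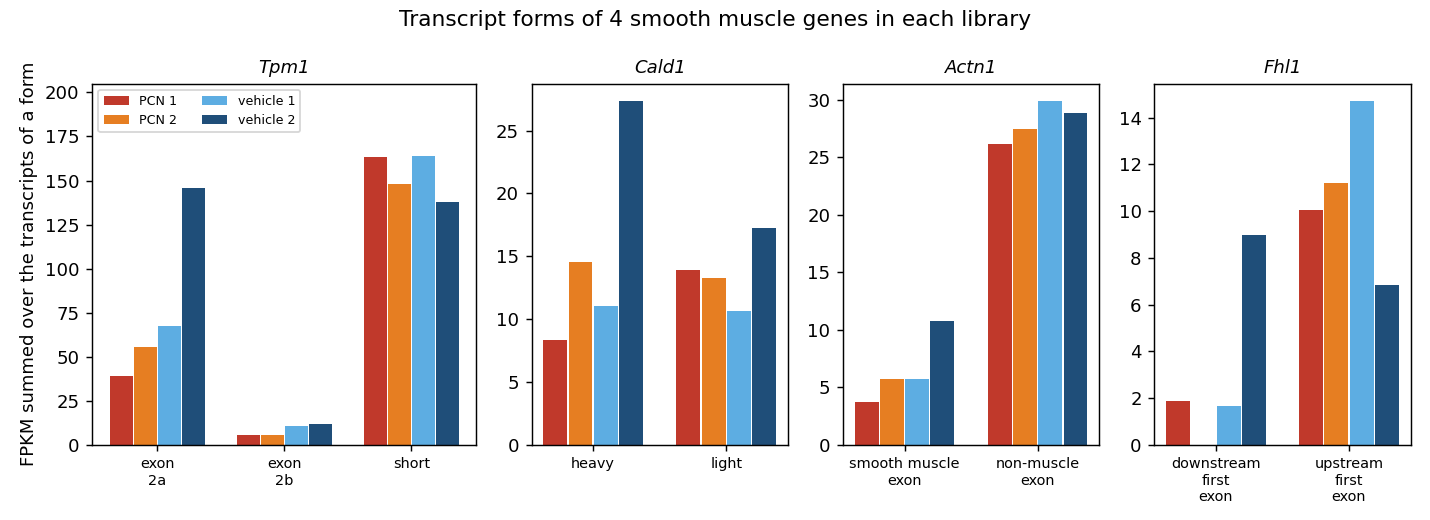
FPKM summed over the transcripts of each form of Tpm1, Cald1, Actn1 and Fhl1, 1 bar per library (red and orange, PCN replicates 1 and 2; light and dark blue, vehicle replicates 1 and 2). Vehicle replicate 2 is highest for both Tpm1 exons (146 and 11.5 FPKM), both Cald1 forms (27.4 and 17.2 FPKM), the smooth muscle exon of Actn1 (10.7 FPKM) and the downstream first exon of Fhl1 (8.99 FPKM), and lowest for the short forms of Tpm1 (138 FPKM) and the upstream first exon of Fhl1 (6.85 FPKM).

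The 3 measured genes that set myosin phosphorylation did not separate the groups, and vehicle replicate 2 alone was high. Mylk, myosin light chain kinase, had 0.699 and 1.33 FPKM in the PCN libraries, against 0.742 and 5.57 FPKM in the vehicle libraries. Ppp1r14a, also called CPI-17, an inhibitor of myosin phosphatase, had 8.36 and 8.91 FPKM in the PCN libraries, against 7.41 and 16.6 FPKM in the vehicle libraries. Dmpk, a kinase named for myotonic dystrophy, had 5.31 and 6.09 FPKM in the PCN libraries, against 5.60 and 19.2 FPKM in the vehicle libraries. In all 3 genes vehicle replicate 1 lay within or below the range of the PCN libraries. Their log2 fold changes were -0.77 ± 0.65, -0.34 ± 0.36 and -0.79 ± 0.53 (limma adjusted p = 0.761, 0.817 and 0.703).

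A further 10 of the genes encode the intermediate filaments and the dense bodies that anchor actin. Des (chr1:75360329-75368579), desmin, the main intermediate filament protein of muscle, had 22.6 and 27.2 FPKM in the PCN libraries, against 48.2 and 104 FPKM in the vehicle libraries. Its vehicle libraries lay 2.16 times apart, and vehicle replicate 1 was 1.94 times the PCN mean (log2 fold change -1.48 ± 0.37, limma adjusted p = 0.301). Synm (chr7:67730160-67759742), synemin, which joins desmin filaments, had 0.983 and 1.07 FPKM in the PCN libraries, against 6.91 and 5.25 FPKM in the vehicle libraries. It averaged 1.03 ± 0.0640 FPKM in PCN ileum and 6.08 ± 1.17 FPKM in vehicle ileum (SD, n = 2 each). The log2 fold change of -1.79 ± 0.20 gave the smallest adjusted p of the 36 genes, at 0.0702 by limma. Synm rested on different transcripts in the vehicle libraries. One transcript was listed at 0 in both PCN libraries, at 5.39 FPKM in vehicle replicate 1 and at 0 in vehicle replicate 2. The other had 0.983 and 1.07 FPKM in the PCN libraries, against 1.52 and 5.25 FPKM in the vehicle libraries. With the more abundant transcript in place of the gene sum, the log2 fold change was -0.97 (limma adjusted p = 0.681, where the alternatives ranged from 0.0374 to 0.681).

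Synpo2, myopodin, which binds actin and filamin at dense bodies, had 8.35 and 6.81 FPKM in the PCN libraries, against 12.1 and 12.6 FPKM in the vehicle libraries. Fhl1, a LIM domain protein of muscle, had 12.9 and 12.3 FPKM in the PCN libraries, against 17.7 and 16.4 FPKM in the vehicle libraries. The sums of these genes separated the groups while the vehicle libraries were close to each other, with ratios of vehicle replicate 2 to 1 of 1.04 and 0.926. Their log2 fold changes were -0.65 ± 0.14 for Synpo2 and -0.41 ± 0.11 for Fhl1 (limma adjusted p = 0.249 and 0.335). For Synpo2 this rested on a transcript with 2.97 and 0 FPKM in the PCN libraries, against 6.66 and 0 FPKM in the vehicle libraries, which has a value identical to one of another gene. Without it Synpo2 had 5.38 and 6.81 FPKM in the PCN libraries, against 5.45 and 12.6 FPKM in the vehicle libraries, so the groups overlapped and the vehicle libraries lay 2.32 times apart. The Fhl1 forms also differed behind the close sums. Transcripts from the downstream first exon had 1.89 and 0.00339 FPKM in the PCN libraries, against 1.65 and 8.99 FPKM in the vehicle libraries, and those from the upstream first exon had 10.1 and 11.2 FPKM in the PCN libraries, against 14.7 and 6.85 FPKM in the vehicle libraries.

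Csrp1, a LIM domain protein that binds actinin, had 51.2 and 54.1 FPKM in the PCN libraries, against 64.7 and 117 FPKM in the vehicle libraries. Pdlim3, which links actinin at Z-discs, had 7.11 and 6.34 FPKM in the PCN libraries, against 9.83 and 17.0 FPKM in the vehicle libraries. Flna, filamin, which crosslinks actin, had 15.7 and 20.7 FPKM in the PCN libraries, against 20.3 and 37.6 FPKM in the vehicle libraries. The groups did not overlap for Csrp1 and Pdlim3 but did for Flna, whose PCN replicate 2 passed vehicle replicate 1. Palld, palladin, and Pdlim7 also overlapped, with log2 fold changes of -0.32 ± 0.20 and -0.30 ± 0.26.

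Actn1, the alpha actinin of dense bodies and of focal contacts in other cells, had 29.9 and 33.2 FPKM in the PCN libraries, against 35.6 and 39.6 FPKM in the vehicle libraries. Its transcripts use either a smooth muscle exon or a non-muscle exon in the calcium-binding part of the protein, and both are shown since the forms differed in their spread between libraries. The smooth muscle exon lies at chr12:80170183-80170248 and the non-muscle exon at chr12:80170686-80170766 (mm10, minus strand, 66 and 81 bases).
Actn1 smooth muscle exon: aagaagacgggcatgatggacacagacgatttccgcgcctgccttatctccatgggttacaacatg
Actn1 non-muscle exon: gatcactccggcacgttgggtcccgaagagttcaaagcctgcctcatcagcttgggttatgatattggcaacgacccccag
Transcripts assigned to the smooth muscle exon had 3.75 and 5.74 FPKM in the PCN libraries, against 5.68 and 10.7 FPKM in the vehicle libraries. Those assigned to the non-muscle exon had 26.2 and 27.5 FPKM in the PCN libraries, against 29.9 and 28.8 FPKM in the vehicle libraries. The ratio of vehicle replicate 2 to 1 was 1.89 for the smooth muscle exon and 0.964 for the non-muscle exon. In the plot of transcript forms, the vehicle libraries lie further apart for the smooth muscle form than for the other form in Tpm1, Cald1 and Actn1.

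The 6 genes of membrane attachment had a median ratio of vehicle replicate 2 to vehicle replicate 1 of 1.16, against 2.13 for the filament genes. Vcl and Tln1, vinculin and talin, tie actin to integrins in muscle and in most other cells. Vcl had 17.7 and 17.9 FPKM in the PCN libraries, against 20.5 and 21.4 FPKM in the vehicle libraries. Tln1 had 13.6 and 13.1 FPKM in the PCN libraries, against 14.5 and 15.4 FPKM in the vehicle libraries. Their log2 fold changes of -0.22 ± 0.09 and -0.15 ± 0.11 were the smallest in size of the 36, and Tgfb1i1, the adaptor Hic-5 of focal adhesions, was next at -0.23 ± 0.19 with overlapping groups. Cav1, caveolin of the membrane pits, had 13.6 and 12.8 FPKM in the PCN libraries, against 15.1 and 23.9 FPKM in the vehicle libraries. Pgm5, aciculin, a phosphoglucomutase relative found at muscle adhesions, had 3.80 and 2.36 FPKM in the PCN libraries, against 4.99 and 8.92 FPKM in the vehicle libraries. Itga5, the alpha chain of a fibronectin receptor, had 1.27 and 0.0991 FPKM in the PCN libraries, against 4.45 and 2.78 FPKM in the vehicle libraries, a log2 fold change of -1.52 ± 0.42 (limma adjusted p = 0.354). Its vehicle order, opposite to that of most genes described here, came from a transcript with 0.691 and 0 FPKM in the PCN libraries, against 2.06 and 0 FPKM in the vehicle libraries. That transcript has a value identical to one of another gene. The other transcript had 0.580 and 0.0991 FPKM in the PCN libraries, against 2.39 and 2.78 FPKM in the vehicle libraries.

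The remaining genes were of low to moderate level. Jph2, a junctophilin that holds the calcium store to the membrane, had 1.49 and 1.34 FPKM in the PCN libraries, against 2.43 and 4.16 FPKM in the vehicle libraries. Kcnmb1, the beta subunit of the calcium-activated potassium channel of smooth muscle, had 0.556 and 1.07 FPKM in the PCN libraries, against 0.733 and 2.02 FPKM in the vehicle libraries. Jph2 separated the groups and Kcnmb1 did not. The small heat shock proteins Hspb1, Hspb6 and Cryab protect filaments, and all 3 had overlapping groups. Hspb1 had 8.39 and 13.3 FPKM in the PCN libraries, against 12.7 and 33.0 FPKM in the vehicle libraries. Hspb6 had 1.48 and 2.44 FPKM in the PCN libraries, against 1.80 and 9.43 FPKM in the vehicle libraries, and Cryab had 1.18 and 0.281 FPKM in the PCN libraries, against 0.607 and 2.35 FPKM in the vehicle libraries. Vehicle replicate 2 was again the highest library, at 2.60 to 5.25 times vehicle replicate 1. Rbpms, an RNA-binding protein that promotes smooth muscle splicing in rat cells, had 7.99 and 8.27 FPKM in the PCN libraries, against 8.34 and 13.8 FPKM in the vehicle libraries.

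To ask whether the 36 genes differed between PCN and vehicle, the fit over all 11103 genes was read for each of them. None passed an adjusted limma p of 0.05 in either direction, where 0.054% of all tested genes passed as lower in PCN (6 genes) and 0.0811% as higher (9 genes). At an unadjusted p under 0.05, 17 of 36 were lower in PCN (4.11% of all tested genes) and 0 were higher. A negative log2 fold change was found in 36 of 36 (49.4% of all tested genes), and the median was -0.68 against 0.0029 over all genes. The deposited values hold only transcripts whose larger group mean was above 1 FPKM. Kcnmb1, Cryab and Itga5 averaged 0.813, 0.731 and 0.685 FPKM in PCN ileum, so they entered only through vehicle ileum. Their lower PCN mean was thus fixed by that filter, and Itga5 is also counted by unadjusted p and by separated groups. Some transcripts of Synm and Actg2 also entered only through vehicle, and a transcript of Cald1 only through PCN. Both PCN libraries lay below both vehicle libraries in 23 of the 36 (19.1% of all tested genes). Without transcripts that have a value identical to one of another gene, a setting chosen after seeing the data, this held in 21 of the 34 genes left (Hspb6 and Cryab have only such transcripts), and Smtn and Synpo2 no longer separated the groups. These counts are not independent of each other, since the 36 genes are read from the same 4 libraries and largely from the same cells. With 2 libraries a side, an exact permutation test of a single value cannot give a two-sided p below 0.333.

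The library that stood apart set much of these values. Without vehicle replicate 2, 28 of 36 genes kept a negative log2 fold change (52.4% of all tested genes), 10 had an unadjusted limma p under 0.05 and were lower in PCN (3.81% of all tested genes), and the smallest adjusted p was 0.285. The median log2 fold change was then -0.23. In this fit the lone vehicle library was assumed to vary like the PCN libraries. Des, Cnn1 and Actg2 were at -0.93, -0.95 and -1.02, whereas Myh11 was at -0.27 and Acta2 at -0.46. The genes whose sign turned were Mylk, Cald1, Dmpk, Kcnmb1, Hspb6, Cryab, Pdlim7 and Ppp1r14a. Without vehicle replicate 1, the median was -1.06, and 26 genes had an unadjusted limma p under 0.05 (5.03% of all tested genes). Both PCN libraries lay below vehicle replicate 2 in 36 of 36 genes (33.7% of all tested genes) and below vehicle replicate 1 in 23 (36.3% of all tested genes). The order in which vehicle replicate 2 was highest and vehicle replicate 1 above both PCN libraries was found in 20 genes (9.99% of all tested genes).

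**Figure D3:**
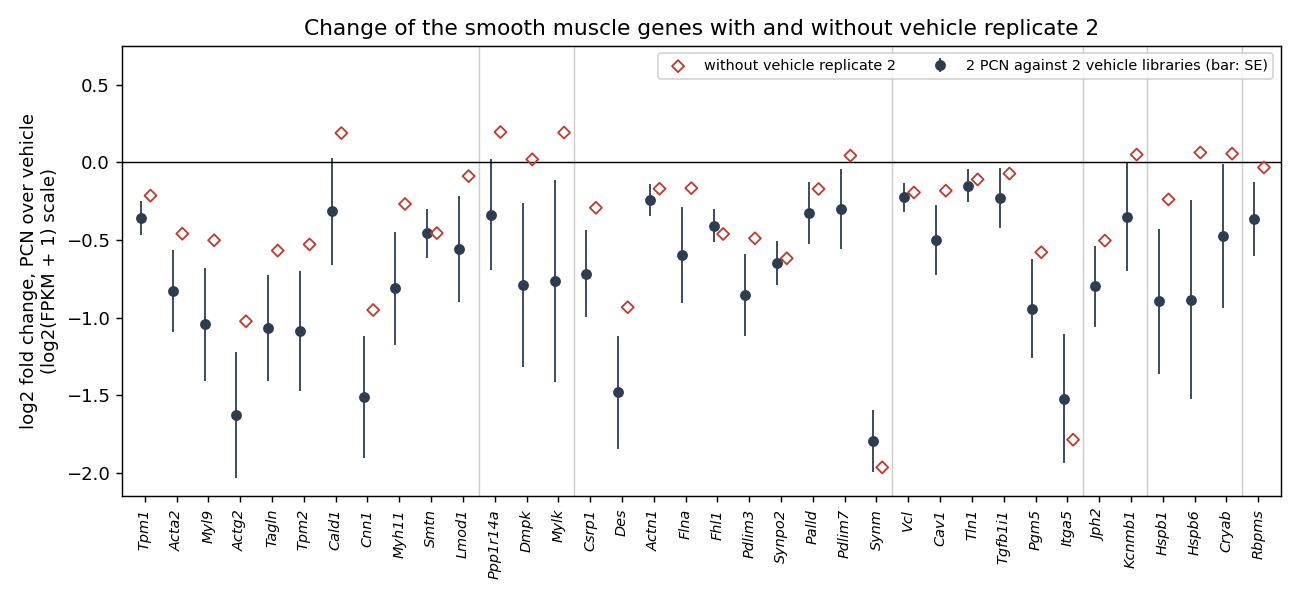
Log2 fold change of the 36 smooth muscle genes, PCN over vehicle, on the log2(FPKM + 1) scale; filled points with SE bars use 2 libraries a group, and open diamonds leave out vehicle replicate 2. All 36 filled points are below 0, and 8 diamonds are above it.

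To see whether the genes kept their proportions, each was set against the sum of the gut muscle genes Actg2, Myh11, Cnn1 and Des in the same library. That sum was 72.4 and 90.7 FPKM in the PCN libraries, against 154 and 346 FPKM in the vehicle libraries. These 4 genes include Actg2, Cnn1 and Des, which have some of the lowest log2 fold changes of the set, so a higher share of other genes in PCN follows in part from the choice of denominator. Of the 32 genes outside the sum, 24 had a higher share in both PCN libraries than in both vehicle libraries. A lower share was found in 1, Synm, and 7 overlapped. Synm equalled 1.36% and 1.18% of the sum in the PCN libraries, against 4.50% and 1.52% in the vehicle libraries. Acta2 equalled 82.0% and 82.8% of the sum in the PCN libraries, against 60.0% and 44.7% in the vehicle libraries. Myl9 equalled 63.6% and 63.7% of it in the PCN libraries, against 47.8% and 45.2% in the vehicle libraries. The ratio of Actg2 to Acta2 was 0.494 and 0.505 in the PCN libraries, against 0.746 and 1.04 in the vehicle libraries. These ratios are a description with no test.

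Sequence upstream of the genes was read for the CArG box, which reads a pair of C, a run of 6 A or T and a pair of G and is found on both strands alike. Among the 32 genes with a RefSeq promoter (GRCm38.p6), 3 held such a box in the 250 bases before the start (9.38%), against 439 of 27025 genes (1.62%). With 1 mismatch allowed, 14 did (43.8%), against 21.1% of all genes. The 7 genes not matched were Actg2, Myh11, Tagln, Cryab, Tgfb1i1, Rbpms and Myocd. The boxes, in capitals, are shown with the bases around them, since the box is the element described above, and most of the 32 genes hold none in this window. They lie at chr2:156775283-156775332 for Myl9, chr14:20929151-20929200 for Vcl and chrX:56779561-56779610 for Fhl1, all on the plus strand. The box began 161, 227 and 102 bases before the start.
Myl9: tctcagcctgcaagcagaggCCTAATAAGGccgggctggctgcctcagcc
Vcl: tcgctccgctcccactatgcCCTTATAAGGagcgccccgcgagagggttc
Fhl1: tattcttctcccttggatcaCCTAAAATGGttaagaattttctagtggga
The Fhl1 promoter is that of the downstream first exon, whose transcripts were at 8.99 FPKM in vehicle replicate 2 and below 2 FPKM in the other libraries. The log2 fold changes of the 3 genes were -1.04 for Myl9, -0.41 for Fhl1 and -0.22 for Vcl. A match is a description of letters and was not tested as a site.

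Other genes of the muscle machinery were read from lists of genes that are not among the 39, and 0 genes of any list passed the adjusted limma threshold. Of the other filament and cytoskeleton genes, 13 of 23 had a negative log2 fold change, with a median of -0.03, and 3 had an unadjusted p under 0.05 and were lower in PCN. The non-muscle actin Actb had 2814 and 2749 FPKM in the PCN libraries, against 2721 and 2450 FPKM in the vehicle libraries. Myl6, a light chain of muscle and non-muscle myosin, had 1028 and 954 FPKM in the PCN libraries, against 978 and 1033 FPKM in the vehicle libraries. Both are made in epithelium as well as in muscle. Flnc, the muscle filamin, had 1.45 and 2.05 FPKM in the PCN libraries, against 3.27 and 6.26 FPKM in the vehicle libraries (log2 fold change -1.03 ± 0.31, limma adjusted p = 0.404). It showed the library order of the contractile genes.

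Calcium handling and ion channel genes had a median of -0.15 with 5 of 9 negative, led in level by the calcium pump Atp2a2 at 85.3 and 86.9 FPKM in the PCN libraries, against 82.6 and 72.5 FPKM in the vehicle libraries. Orai1, a calcium entry channel, averaged 17.2 ± 1.64 FPKM in PCN ileum and 16.2 ± 0.833 FPKM in vehicle ileum (SD, n = 2 each). Cacna2d1, a calcium channel subunit, was at 4.89 FPKM in PCN replicate 2 and listed at 0 in the other 3 libraries. Receptors of gut muscle had a median of 0.11 with 3 of 8 negative. P2ry2 averaged 17.9 ± 0.398 FPKM in PCN ileum and 21.7 ± 2.78 FPKM in vehicle ileum (SD, n = 2 each), and P2ry1 averaged 16.4 ± 0.134 FPKM in PCN ileum and 12.6 ± 0.558 FPKM in vehicle ileum (SD, n = 2 each), both being nucleotide receptors. Chrm2, the most abundant muscarinic receptor of gut muscle, had 0.637 and 0.779 FPKM in the PCN libraries, against 0.904 and 2.38 FPKM in the vehicle libraries.

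The transcription factors of the SRF and myocardin group had a median of 0.01 with 7 of 15 negative. Klf5 averaged 158 ± 7.38 FPKM in PCN ileum and 142 ± 0.0851 FPKM in vehicle ileum, and Klf4 90.1 ± 9.53 FPKM in PCN ileum and 83.4 ± 1.72 FPKM in vehicle ileum (SD, n = 2 each), and both are also strongly made in epithelium. Mkl1, a myocardin-related cofactor, had 4.93 and 2.15 FPKM in the PCN libraries, against 5.76 and 5.39 FPKM in the vehicle libraries. The dystrophin complex and caveolae had 10 of 11 negative, with a median of -0.19. Ptrf and Sdpr, also called cavins, coat caveolae with Cav1. Ptrf had 13.4 and 12.0 FPKM in the PCN libraries, against 20.5 and 17.2 FPKM in the vehicle libraries (log2 fold change -0.53 ± 0.13, limma adjusted p = 0.308), and Sdpr had 6.73 and 6.26 FPKM in the PCN libraries, against 11.4 and 9.55 FPKM in the vehicle libraries (log2 fold change -0.61 ± 0.15, limma adjusted p = 0.289). In both, vehicle replicate 1 was the higher vehicle library, unlike in most contractile genes. Dag1, dystroglycan, averaged 42.2 ± 0.613 FPKM in PCN ileum and 45.8 ± 6.25 FPKM in vehicle ileum (SD, n = 2 each). Integrin adhesion genes had a median of -0.10 with 8 of 13 negative, among them Itgb1 at 89.3 ± 3.06 FPKM in PCN ileum and 95.7 ± 3.75 FPKM in vehicle ileum (SD, n = 2 each). Its median thus stood nearer to that of all genes than that of the 36 contractile genes did. Pxn, paxillin, averaged 37.2 ± 3.29 FPKM in PCN ileum and 28.0 ± 6.25 FPKM in vehicle ileum, and Tns1, tensin, 3.72 ± 1.53 FPKM in PCN ileum and 2.17 ± 2.14 FPKM in vehicle ileum (SD, n = 2 each).

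**Figure D4:**
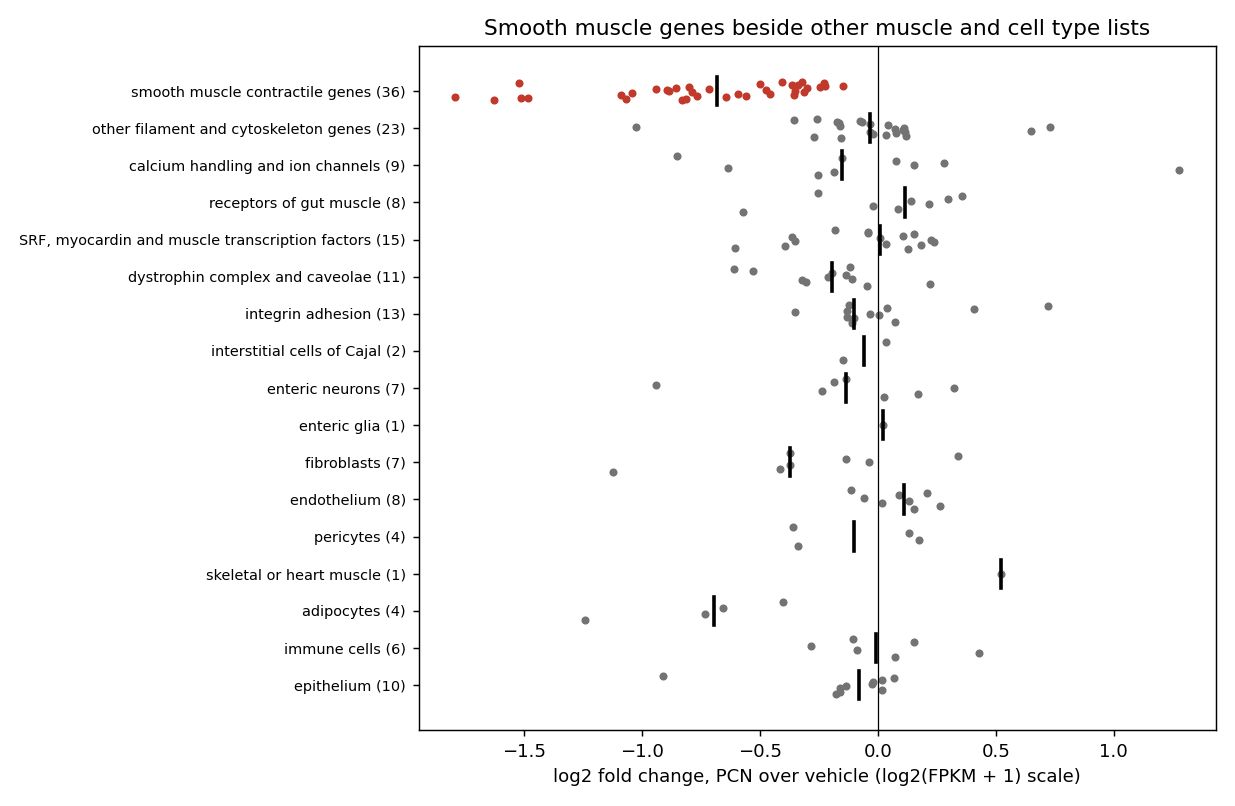
Log2 fold change (PCN over vehicle, log2(FPKM + 1) scale) of each tested gene in the lists, with the list's number of tested genes in brackets and a black line at its median. The smooth muscle contractile genes have a median of -0.68 and no gene above 0. The other lists of muscle machinery have medians from -0.19 to 0.11, and the 1 tested marker of skeletal or heart muscle is at 0.52.

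Markers of other cell types in the wall were read the same way. Of the adipocyte markers 4 of 6 were measured, with a sum of 36.1 and 51.1 FPKM in the PCN libraries, against 42.6 and 115 FPKM in the vehicle libraries. Fabp4, a fatty acid carrier of adipocytes and vessels, had 25.9 and 36.4 FPKM in the PCN libraries, against 30.4 and 78.5 FPKM in the vehicle libraries, and Cfd had 4.52 and 6.77 FPKM in the PCN libraries, against 5.09 and 18.5 FPKM in the vehicle libraries. Adipoq, the defining adipocyte hormone gene, had 0.397 and 1.31 FPKM in the PCN libraries, against 1.47 and 6.30 FPKM in the vehicle libraries, while Plin1 and Lep had no row. The median of the list was -0.70. Pericyte markers, with 4 of 5 measured, summed to 43.2 and 53.4 FPKM in the PCN libraries, against 43.5 and 79.2 FPKM in the vehicle libraries, with a median of -0.10. Rgs5 had 30.0 and 38.3 FPKM in the PCN libraries, against 30.5 and 60.8 FPKM in the vehicle libraries, and Mcam had 6.23 and 8.00 FPKM in the PCN libraries, against 7.64 and 11.4 FPKM in the vehicle libraries. Pdgfrb had 5.44 and 5.47 FPKM in the PCN libraries, against 3.99 and 5.57 FPKM in the vehicle libraries, and Notch3 had 1.59 and 1.62 FPKM in the PCN libraries, against 1.33 and 1.42 FPKM in the vehicle libraries. Vehicle replicate 2 was thus the highest library for the 4 adipocyte markers and for 3 of the 4 pericyte markers, with Pdgfrb close to the PCN libraries, and vehicle replicate 1 lay below PCN replicate 2 in both sums. Their part in the contractile gene values was not tested.

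The fibroblast sum had the order of the contractile sum in the vehicle libraries, with a smaller gap, but its single markers were split. Col1a1 had 7.90 and 7.50 FPKM in the PCN libraries, against 20.6 and 15.6 FPKM in the vehicle libraries (log2 fold change -1.12 ± 0.16, limma adjusted p = 0.125). Vehicle replicate 1 was the higher vehicle library for Col1a1, Col1a2, Col3a1 and Pdgfra, and vehicle replicate 2 for Dcn, Lum and Dpt. Of these markers, all 7 were measured and summed to 203 and 202 FPKM in the PCN libraries, against 229 and 251 FPKM in the vehicle libraries, with a median of -0.37. Col3a1 had 59.4 and 57.1 FPKM in the PCN libraries, against 76.2 and 75.1 FPKM in the vehicle libraries (log2 fold change -0.37 ± 0.07, limma adjusted p = 0.201), and Dcn averaged 79.2 ± 0.0616 FPKM in PCN ileum and 81.8 ± 11.6 FPKM in vehicle ileum (SD, n = 2 each). Endothelial markers, all 8 measured, had a median of 0.11, led by Plvap at 39.6 ± 1.08 and Pecam1 at 14.4 ± 3.23 FPKM in PCN ileum, against 37.2 ± 2.74 and 12.6 ± 0.627 FPKM in vehicle ileum (SD, n = 2 each). Markers of enteric neurons, which lie between the muscle layers, had a median of -0.13 with 4 of 7 tested genes negative. Vip averaged 11.1 ± 3.78 FPKM in PCN ileum and 12.9 ± 0.399 FPKM in vehicle ileum, and Tac1 18.7 ± 4.43 FPKM in PCN ileum and 14.5 ± 0.163 FPKM in vehicle ileum (SD, n = 2 each), and both peptides are also made in mucosal nerve fibres or endocrine cells. Their list summed to 35.2 and 51.8 FPKM in the PCN libraries, against 40.8 and 46.8 FPKM in the vehicle libraries.

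Interstitial cells of Cajal, the pacemakers of gut muscle, had 2 tested markers with a median of -0.06. The 4 measured markers summed to 7.37 and 8.26 FPKM in the PCN libraries, against 9.97 and 10.1 FPKM in the vehicle libraries, and Kit had 5.64 and 5.69 FPKM in the PCN libraries, against 5.90 and 6.90 FPKM in the vehicle libraries. Kit is also made by mast cells. Prkcq averaged 1.32 ± 0.170 FPKM in PCN ileum and 1.32 ± 0.727 FPKM in vehicle ileum (SD, n = 2 each). Of the glial markers, 1 was tested, Erbb3, at 77.6 and 74.5 FPKM in the PCN libraries, against 70.3 and 79.6 FPKM in the vehicle libraries, which is also made in epithelium. Immune markers had a median of -0.01 with 3 of 6 negative. Epithelial markers had a median of -0.08 with 7 of 10 negative, and 2 were lower at an unadjusted limma p under 0.05 (4.11% of all tested genes). Both PCN libraries lay below both vehicle libraries in 5 of the 10 epithelial markers (19.1% of all tested genes). Cd79a averaged 20.4 ± 4.55 FPKM in PCN ileum and 25.2 ± 7.30 FPKM in vehicle ileum, and Ptprc 18.8 ± 1.05 FPKM in PCN ileum and 17.8 ± 1.79 FPKM in vehicle ileum (SD, n = 2 each). Lgals4 averaged 2327 ± 210 FPKM in PCN ileum and 2217 ± 10.9 FPKM in vehicle ileum (SD, n = 2 each). Fabp6, the ileal bile acid binding protein, had 4228 and 3652 FPKM in the PCN libraries, against 8059 and 6757 FPKM in the vehicle libraries (log2 fold change -0.91 ± 0.13, limma adjusted p = 0.109). Of 14 markers of skeletal or heart muscle, 12 had no row and 1 was tested, Mylpf, at 2.41 and 1.92 FPKM in the PCN libraries, against 0.353 and 2.58 FPKM in the vehicle libraries. The 4 mesothelial markers had no row. The smooth muscle genes Acta2, Actg2, Myh11, Tagln, Cnn1 and Des were measured in all 4 libraries. They were chosen by name, so their presence does not test the label of smooth muscle.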

How the data were processed

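RNA of 4 ileum libraries (2 PCN, 2 vehicle) was prepared with a SMARTER kit per the labels, which also gave groups and replicate numbers. The values are FPKM per transcript, as the authors deposited them, for protein-coding transcripts in which the larger group mean was above 1 FPKM. The submitters' processing notes name mm10 as the build. The aligner and quantification program are not given in the sources used here. Supplementary methods of the study name another tissue, kit and genome and were left aside. An exact 0 can be a failed estimate. In at least 1 library, 14 of the 84 transcripts had a value identical to one of another gene's transcripts (17.4% of all transcripts). Whether such matches come from shared reads or from coincidence was not tested. Low values held no clear step, so depth, counting intervals and detection limits are not given.

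FPKM were summed per gene. The 11103 genes averaging 1 FPKM or more over the libraries entered limma 3.58.1 (R 4.3.3) as log2(FPKM + 1), with a mean-variance trend and no replicate block, adjusted by the Benjamini-Hochberg method over all of them with a threshold of 0.05. This scale understates the change of low genes. The procedure was tested on simulated data. A further muscle list is not reported here. Alternatives changed the pseudocount, the filter, the scaling, the variance model, the gene sums, the libraries and the block. The genes and lists were chosen with earlier results of these data known, and transcript forms after values were seen. Named genes were the 36 contractile genes, the 2 most abundant and the most changed gene of each muscle list reported, the 2 most abundant markers of each cell type, B3galt5 and Cyp3a11. Adipoq, Pdgfrb, Notch3 and the further fibroblast markers were named outside this rule, after their values were seen. Exon sequences came from GENCODE on GRCm38, which is mm10, and promoters from RefSeq (GRCm38.p6).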

Additional observations from a re-analysis of the deposited data

How the results depend on the processing

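The negative sign of the 36 smooth muscle genes and their lack of calls at the adjusted threshold held under most alternatives, and the value of the median depended on the vehicle libraries. Leaving out 1 library gave medians from -1.06 to -0.23, 28 to 36 negative genes, and 5 to 26 genes lower at an unadjusted p under 0.05, against 17 with all libraries. The extremes came without vehicle replicate 1 (-1.06, 26 genes), without vehicle replicate 2 (-0.23, 28 negative) and without PCN replicate 1 (5 genes). For the 8 genes whose sign turned, the log2 fold changes without 1 library ranged from -1.72 to 0.19 for Mylk, -0.82 to 0.19 for Cald1, -1.60 to 0.020 for Dmpk, -0.75 to 0.050 for Kcnmb1, -1.83 to 0.064 for Hspb6, -1.003 to 0.057 for Cryab, -0.64 to 0.044 for Pdlim7 and -0.87 to 0.20 for Ppp1r14a, the highest value coming without vehicle replicate 2 and the lowest without vehicle replicate 1. With the most abundant transcript in place of the gene sum, Tpm1 was at 0.27 and Fhl1 at 0.065, and 8 genes were lower at an unadjusted p under 0.05. In that setting the transcript tested for Tpm1 was a short form and that for Fhl1 came from the upstream first exon.

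Scaling each library to a common sum gave 1 contractile gene past the adjusted threshold, Synm, at -2.05 (limma adjusted p = 0.0374, where the alternatives ranged from 0.0374 to 0.681). The cause was not tested.

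Over all genes, 9 were higher and 6 lower in PCN. The counts were 5 higher with a pseudocount of 0.1, 34 higher and 22 lower with a mean of at least 5 FPKM, and 24 higher and 13 lower with that scaling. Without the trend they were 2 higher and 0 lower (941 at an unadjusted p under 0.05), and with transcripts 1 higher and 0 lower (1627 transcripts at an unadjusted p under 0.05). Without 1 library they ranged over 0 to 8 higher and 0 to 12 lower. The counts of 0 came without PCN replicate 1, PCN replicate 2 and vehicle replicate 2, with 780, 762 and 837 genes at an unadjusted limma p under 0.05 in those fits.

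The replicate numbers give no stated pairing. Over all tested genes, the deviations of same-numbered libraries from their group means correlated at 0.034. With 2 libraries a group, the other pair is a mirror image. This single correlation across genes does not settle pairing for the contractile genes, and the numbers were taken as names. In all 11 filament genes, replicate 2 was the higher library in both groups. The lowest ratio of replicate 2 to replicate 1 among them was 1.007 in PCN and 1.003 in vehicle. With the replicate number as a block, 39 genes were higher and 21 lower. Of the 36 contractile genes 0 passed the adjusted limma threshold, with 20 lower at an unadjusted p under 0.05 (4.86% of all genes in that fit). The adjusted limma p with the block was 0.0588 for Cnn1, 0.0611 for Actg2 and 0.0735 for Des and Acta2. Without the block these were 0.328, 0.304, 0.301 and 0.441. For Myh11 the adjusted limma p was 0.302 with the block and 0.572 without it.

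With 2 libraries a group, 1 library can set a mean, and with depth unknown the precision of genes near 1 FPKM cannot be given. FPKM sums also move with transcripts that differ in length and with reads divided between alike sequences.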

Other observations

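A stepwise order of libraries was searched over all genes averaging 5 FPKM or more, in which vehicle replicate 2 was at least 1.5 times vehicle replicate 1 and vehicle replicate 1 at least 1.5 times the higher PCN library. Of 7476 such genes 7 had it, and 3 of these, Actg2, Des and Cnn1, were contractile genes, of which 28 were in the search. The order is the one already described above for contractile genes, so finding them in it is no separate result. The other 4 of the 7 genes were chosen after their values were seen. Cox6b2, a cytochrome c oxidase subunit, had 6.71 and 2.83 FPKM in the PCN libraries, against 15.6 and 29.4 FPKM in the vehicle libraries. Car3, a carbonic anhydrase abundant in fat and skeletal muscle, had 1.31 and 3.06 FPKM in the PCN libraries, against 4.65 and 17.8 FPKM in the vehicle libraries. Ubp1 had 5.26 and 1.16 FPKM in the PCN libraries, against 8.60 and 13.4 FPKM in the vehicle libraries, and Tppp3 had 4.04 and 4.08 FPKM in the PCN libraries, against 6.96 and 11.4 FPKM in the vehicle libraries. These values are a description with no test.

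Some ratios between contractile genes within a library separated the groups, a description with no test. Actg2 and Des have some of the lowest log2 fold changes of the set. A higher ratio to either of them in PCN thus follows in part from the choice of denominator. The ratio of Lmod1 to Actg2 was 0.102 and 0.0974 in the PCN libraries, against 0.0524 and 0.0488 in the vehicle libraries. The ratio of Flna to Des was 0.694 and 0.761 in the PCN libraries, against 0.422 and 0.360 in the vehicle libraries. The ratio of Acta2 to Myh11 overlapped, at 5.33 and 5.95 in the PCN libraries, against 6.37 and 4.85 in the vehicle libraries.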
